A study of Mus musculus with 6 samples.

Results

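Calcium entry channels, calcium pumps, the release channels of the endoplasmic reticulum (ER) and the calmodulin machinery were followed in sorted tumour cells of the mouse pancreas. Members were the protein-coding genes whose symbols name a voltage-gated calcium channel subunit (Cacna, Cacnb, Cacng), a TRPC, TRPM or TRPV channel, Orai, Stim, an IP3 receptor (Itpr), a ryanodine receptor (Ryr), a calcium pump (Atp2a, Atp2b, Atp2c), a calmodulin (Calm) or a calmodulin kinase (Camk). They numbered 76 of the 25978 genes measured. The name pattern also takes Trpc4ap, which encodes a protein that binds TRPC4, and Trpc5os, a gene on the opposite strand of Trpc5, and neither is a channel.

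All 6 libraries came from primary pancreatic tumours of KPCY mice on a C57BL/6 background, aged 5 to 7 weeks. In these mice Pdx1-Cre, active in the pancreatic lineage, removes floxed Trp53 (Trp53fl/fl) and turns on a yellow fluorescent protein from Rosa26LSL-YFP. YFP-positive cells were sorted by EpCAM, an epithelial surface adhesion protein, into 3 EpCAM+ and 3 EpCAM- libraries, called biological replicates by the submitters. Both groups carry the same alleles, so no library comes from a normal pancreas, and because Pdx1-Cre also marks normal pancreatic cells, sorted cells need not all be tumour cells. The sources used here do not say whether equally numbered libraries share a tumour. The p-values therefore rest on the spread among these 6 libraries alone.

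A resting cell keeps its cytosolic calcium far below the levels outside the cell and in the ER. Plasma membrane pumps (PMCA, Atp2b) and ER pumps (SERCA, Atp2a) export it, and IP3 receptors let it out of the ER when phospholipase C makes IP3. STIM proteins sense an emptied ER and open ORAI channels in the plasma membrane, the route called store-operated entry. In the exocrine pancreas, IP3-driven calcium release controls enzyme and fluid secretion, while voltage-gated channels are best known from islet cells, muscle and neurons. Calmodulin binds the calcium and activates kinases of the CaMK families.

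The labels were first checked with Epcam RNA, whose log2 level averaged 14.95 ± 0.096 in EpCAM+ cells and 7.96 ± 0.64 in EpCAM- cells (SD over 3 libraries each, n = 3). Levels are the authors' normalised log2 values, and a fold change is EpCAM- minus EpCAM+ on that log2 scale. The values are normalised, so read depth is unknown. Several marker lists of other cell types also differed between the groups. Of the fibroblast list 11 of 14 tested genes were higher and 1 lower in EpCAM-, and the list took between 0.494% and 0.962% of the back-transformed total there against 0.0897% to 0.177% in EpCAM+. The EpCAM+ share was largely that of Fbln2, at log2 levels of 14.93, 15.51 and 14.36 in replicates 1, 2 and 3. Col1a1 stood at 12.33, 8.96 and 9.14 in the same libraries. Of 12 tested leukocyte markers, chiefly of macrophages, 11 were lower in EpCAM-, with 0.0159% to 0.0395% of the total in EpCAM+ and 0.00266% to 0.00350% in EpCAM-, and the T cell marker Cd3e was at the bottom of the scale in all libraries. Of 12 tested islet markers 10 were lower and 1 higher, with 0.00930% to 0.0492% of the total in EpCAM+ and at most 0.00187% in EpCAM-. Of 14 tested acinar markers 13 were lower, with 0.219% to 0.462% of the total in EpCAM+ and at most 0.00300% in EpCAM-. Genes were tested only where they averaged 10 or more over the 6 libraries after back-transformation. In EpCAM-, the islet markers Ins1, Ins2, Ppy, Pyy and Sst and the acinar markers Amy2b, Cela2a, Cela3b, Pnlip and Ptf1a averaged under 10. In EpCAM+, so did the fibroblast marker Dpt. These genes were tested only through the other group, which fixed their direction. The counts of their lists were thus set in part by this filter. Of 8 tested neuron and Schwann cell markers 2 were higher and 3 lower. Their list took 0.0178% to 0.0237% of the total in EpCAM+. In EpCAM- it took 0.0145% to 0.0486%, the highest in replicate 1. Smooth muscle and pericyte markers gave 2 higher and 2 lower of 11 tested, and endothelial markers 1 higher and 1 lower of 5. Of 4 tested skeletal and cardiac muscle markers 1 was lower and 0 higher. In bulk libraries fewer cells of a type and less RNA per cell cannot be told apart, and the part that these cell types have in the results on calcium genes was not tested.

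Of the 76 members, 49 were tested because their values, taken back from log2, averaged 10 or more across the 6 libraries, and 27 lay under that filter. A gene averaging under 10 in either group alone was tested only through its level in the other, which fixed its direction. With limma and Benjamini-Hochberg adjustment over all tested genes, 24 of the 49 passed at an adjusted p under 0.05, beside 43.4% of all 15783 tested genes. EpCAM- cells had higher levels of 10 members (20.4%, beside 20.3% of all tested genes) and lower levels of 14 (28.6%, beside 23.1%). The share of members that differed was thus near the background, and the description below concerns which members moved. Differences of 1 log2 unit or more were seen in 7 higher and 10 lower members, 14.3% and 20.4% of the tested members, beside 9.36% and 14.5% of all tested genes. The groups did not overlap for 27 members (55.1%, beside 56.3% of all tested genes). The median fold change of tested members was -0.014, against 0.0043 for all tested genes, and the median absolute change 0.66 against 0.46. The count of lower members was 9 without EpCAM+ replicate 2, and again 9 without EpCAM+ replicate 1 and EpCAM- replicate 3 together.

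**Figure D1:**
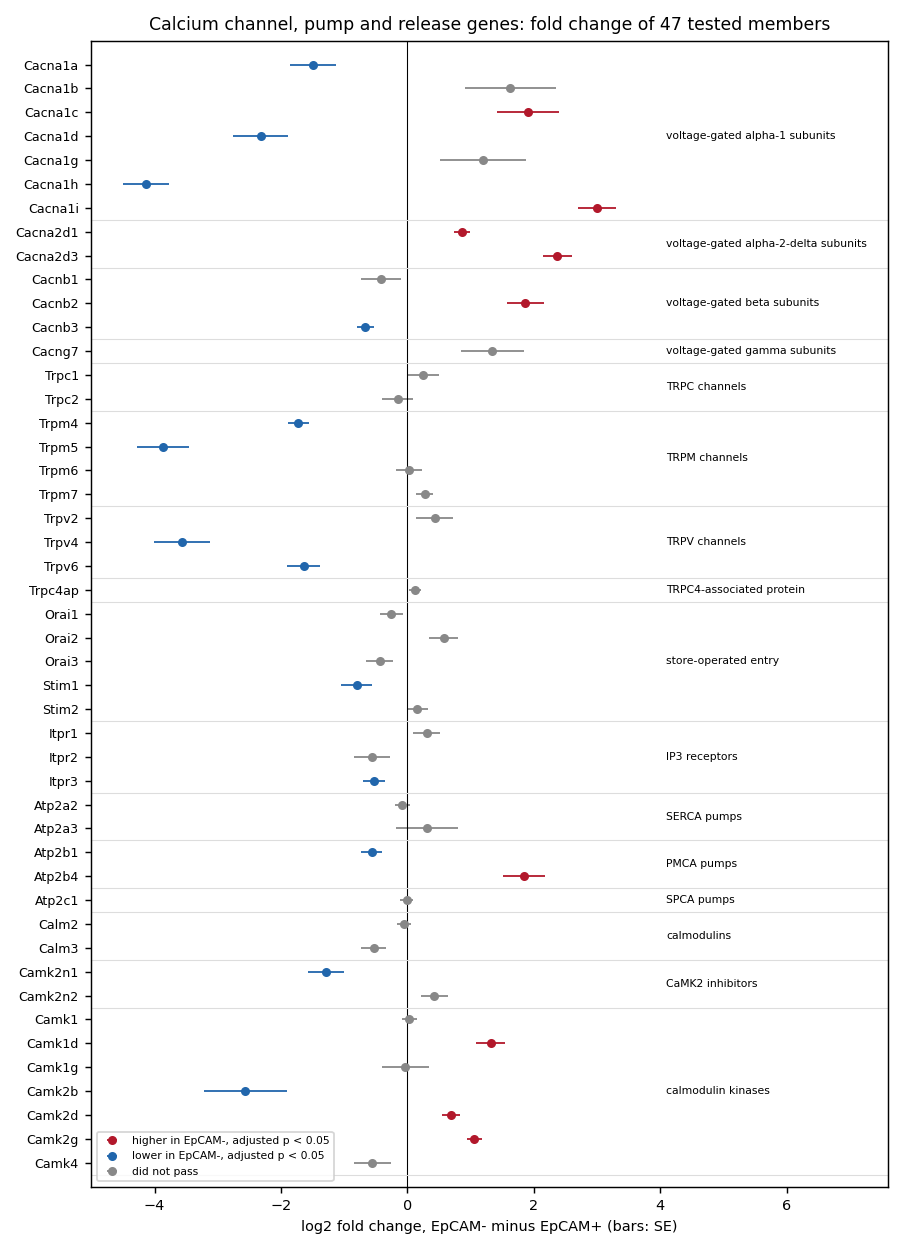
Log2 fold change (x axis, EpCAM- minus EpCAM+, bars are the SE) of 47 of the 49 tested members, grouped by role from channels at the top to calmodulin kinases at the bottom. Red marks the 9 higher and blue the 13 lower members shown past an adjusted p of 0.05 in limma, and Cacna1h has the lowest value, -4.14.

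Members moved in opposite directions within several families, and the pore-forming alpha-1 subunits of voltage-gated channels gave the widest spread. Of 9 alpha-1 members 7 were tested, of which 2 were higher, 3 lower and 2 did not pass. Cacna1h encodes a T-type channel, a class that opens at low voltages (ENSMUSG00000024112, GRCm38 chromosome 17, 25374285 to 25433783). EpCAM+ libraries had log2 levels of 8.63, 8.67 and 9.33, always given here in the order of replicates 1, 2 and 3, and EpCAM- libraries had 5.11, 5.12 and 3.99. The groups stood apart, with a fold change of -4.14 ± 0.36 (SE, limma adjusted p = 0.000152), a 17.6-fold decrease and the largest of all tested members. Cacna1i, a second T-type gene (chromosome 15, 80287238 to 80398279), went the other way. It stood at 3.23, 2.76 and 2.65 in EpCAM+ and at 5.65, 5.61 and 6.39 in EpCAM-, a fold change of 3.00 ± 0.29 (SE, adjusted p = 0.000251), the largest increase of the tested members. Back-transformed, the EpCAM+ levels of Cacna1i average under 10. It was thus tested only through its EpCAM- levels, and as a tested gene it could come out higher but not lower. Those EpCAM+ levels also lie low on this scale. Because the transform behind the values is not stated, the size of the Cacna1i fold is uncertain. The size of the Cacna1h fold is uncertain in the same way through its EpCAM- levels. The remaining T-type gene, Cacna1g, stood at 5.78, 5.04 and 5.06 in EpCAM+ and 6.84, 7.73 and 4.89 in EpCAM-. Its groups overlapped because of EpCAM- replicate 3, and its fold change of 1.19 did not pass (adjusted p = 0.199). Without that library its adjusted p was 0.00859, and alternatives spanned 0.00859 to 0.490.

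The L-type genes, which open at high voltages and carry calcium entry in muscle and endocrine cells, likewise split. Cacna1d was at 6.66, 6.20 and 6.76 in EpCAM+ and 5.18, 3.96 and 3.51 in EpCAM-, a fold change of -2.32 ± 0.44 (SE, adjusted p = 0.00489). Cacna1c was at 5.22, 4.36 and 6.32 in EpCAM+ and 7.46, 7.36 and 6.80 in EpCAM-, a fold change of 1.91 ± 0.49 (SE, adjusted p = 0.0177). No EpCAM- library overlapped EpCAM+ for either gene, but Cacna1c lost its call without EpCAM+ replicate 1 (adjusted p = 0.0520), EpCAM- replicate 2 (0.0517) or EpCAM+ replicate 1 and EpCAM- replicate 3 (0.0658), and alternatives spanned 0.00492 to 0.0658. The spans of both genes, introns included, overlap genes on the opposite strand. Shared exons were not examined, and the sources used here do not say whether counting used strand. Chdh, which overlaps Cacna1d, had a fold change of -4.34 from a mean log2 level of 10.48, and Dcp1a, which also overlaps it, had 0.073. Dcp1b, which overlaps Cacna1c, had -0.63. Cacna1d moved in the direction of 10 of the 12 tested islet markers. Of those, Ins1, Ins2, Ppy, Pyy and Sst could come out lower but not higher, because of the filter. Pax6 was higher (2.74 ± 0.56, SE) and Insm1 had 0.63, and most acinar, leukocyte and epithelial markers were lower too.

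Among the neuronal-type channels, the P/Q-type gene Cacna1a was lower in EpCAM-. Its levels were 8.54, 8.82 and 8.27 in EpCAM+ and 7.04, 6.35 and 7.77 in EpCAM-, without overlap, and the fold change was -1.49 ± 0.36 (SE, adjusted p = 0.0137). The call was lost without EpCAM+ replicate 2 (adjusted p = 0.0506, with alternatives spanning 0.00349 to 0.0506). The N-type gene Cacna1b stood at 6.17, 4.90 and 5.58 in EpCAM+ and at 8.87, 6.18 and 6.49 in EpCAM-. EpCAM- replicate 1 was far above the other libraries, and the fold change of 1.63 did not pass (adjusted p = 0.108). It passed with the replicate number as a block (adjusted p = 0.0198, with alternatives spanning 0.0198 to 0.264). Values per kilobase, the back-transformed value divided by the merged exon length, put the alpha-1 genes in an order within each group. In EpCAM+ Cacna1h had the highest mean (49.4 per kb), followed by Cacna1a (33.1), and the other 5 tested genes lay between 0.758 for Cacna1i and 7.48 for Cacna1d. In EpCAM- Cacna1b had 21.1, Cacna1a 12.6 and Cacna1g 11.7 per kb, and the others lay between 1.67 for Cacna1d and 7.12 for Cacna1c. The libraries of EpCAM- overlapped for those leading genes, so their order there is not resolved.

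Auxiliary subunits bring the pore to the membrane and tune its opening. Both tested alpha-2-delta genes were higher in EpCAM-. Cacna2d1 stood at 10.58, 10.41 and 10.42 in EpCAM+ and 11.19, 11.26 and 11.57 in EpCAM-, a fold change of 0.87 ± 0.13 (SE, adjusted p = 0.00156). Cacna2d3 stood at 2.86, 2.45 and 2.57 against 5.17, 4.70 and 5.11, a fold change of 2.37 ± 0.23 (SE, adjusted p = 0.000238). Its EpCAM+ values average under 10 after back-transformation, so, as for Cacna1i, it could come out higher but not lower. The size of its fold is uncertain too. Cacna2d2 and Cacna2d4 lay under the filter, and without it they had -0.14 and -0.38 and did not pass. Per kb, Cacna2d1 was far more abundant than Cacna2d3 in either group, with means of 114 and 0.712 in EpCAM+ and 210 and 3.69 in EpCAM-. Of the beta subunits, Cacnb2 was higher, at 6.70, 7.74 and 6.92 in EpCAM+ and 8.69, 9.0002 and 9.27 in EpCAM- (1.87 ± 0.30, SE, adjusted p = 0.00240). Cacnb3 was lower, at 10.73, 10.79 and 10.56 against 10.11, 10.19 and 9.79 (-0.66 ± 0.14, SE, adjusted p = 0.00735), and remained the most abundant beta gene per kb in both groups (414 and 263). The Cacnb3 call was lost when EpCAM+ replicate 1 and EpCAM- replicate 3 were both left out (adjusted p = 0.0650, with alternatives spanning 0.00491 to 0.0650). Cacnb1 (-0.42) and the gamma subunit gene Cacng7 (1.345, adjusted p = 0.0634) did not pass, although the Cacng7 groups did not overlap. The EpCAM+ levels of Cacng7 average under 10 after back-transformation, so it too could come out higher but not lower. Cacng7 passed without EpCAM- replicate 3 (adjusted p = 0.0461) and with the replicate number as a block (0.0129), with alternatives spanning 0.0129 to 0.169.

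TRP channels pass cations in response to chemical, thermal and mechanical cues. Of 8 TRPM and 5 TRPV members 7 were tested, and 4 of these were lower, none higher, beside 23.1% and 20.3% of all tested genes. That count depends on the filter. Without it Trpm3 (0.80, limma adjusted p = 0.0229) and Trpm8 (0.31, 0.0433) were higher and Trpv3 (-1.23, 0.00747) was lower. Trpm5 (ENSMUSG00000009246, chromosome 7, 143069153 to 143094642) is a calcium-activated sodium channel known as a marker of tuft cells, the chemosensory cells of epithelia. It stood at 8.46, 7.13 and 7.78 in EpCAM+ and 4.30, 4.17 and 3.31 in EpCAM-. That is a fold change of -3.86 ± 0.41 (SE, adjusted p = 0.000354), or 14.6-fold, with no overlap. Its EpCAM- levels lie low on the scale, so the size of this fold is uncertain. Tssc4, on the opposite strand of Trpm5, had -1.09. Trpv4 (ENSMUSG00000014158, chromosome 5, 114622152 to 114658421), an osmotic and mechanical sensor of epithelia, stood at 9.15, 9.50 and 9.23 in EpCAM+ and 6.79, 5.43 and 4.95 in EpCAM-. Its fold change was -3.57 ± 0.45 (SE, adjusted p = 0.000770), and EpCAM- replicate 1 was the highest of its group.

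The smaller differences in this class concerned Trpm4 and Trpv6. Trpm4, the close relative of Trpm5, stood at 10.64, 10.65 and 10.58 in EpCAM+ and at 8.57, 8.98 and 9.15 in EpCAM- (-1.72 ± 0.16, SE, adjusted p = 0.000191). Trpv6, a calcium-selective channel of absorptive epithelia, stood at 5.59, 5.51 and 6.18 against 4.43, 3.92 and 3.999 (-1.64 ± 0.27, SE, adjusted p = 0.00261). Both were separated between groups by more than the spread of either. The magnesium and calcium channel kinases Trpm6 (0.020) and Trpm7 (0.27, adjusted p = 0.144) did not pass, nor did Trpv2 (0.44). The sign of Trpm6 was reversed without EpCAM+ replicate 1 or 3 or EpCAM- replicate 3, or without EpCAM+ replicate 1 and EpCAM- replicate 3 together, and Trpm7 passed without EpCAM- replicate 1 (adjusted p = 0.0174, with alternatives spanning 0.0174 to 0.568). Of 7 TRPC channels only Trpc1 (0.25) and Trpc2 (-0.15) could be tested, and neither passed. The span of Trpc2 overlaps the same-strand genes Xndc1 and Xntrpc, so its level is uncertain. Trpc4ap, tested as a member, had 0.12.

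Trpm5 was set beside a list of 14 tuft cell markers, a list chosen after the values of Trpm5 were seen. Of its 11 tested genes 9 were lower in EpCAM-, 1 was higher and 1 did not pass. The lower genes included Rgs13, a regulator of G protein signalling (-4.48 ± 0.39, SE), the actin binder Avil (-3.98 ± 0.23, SE), the taste G protein Gnat3 (-3.57 ± 0.32, SE) and the tuft cell regulator Pou2f3 (-2.22 ± 0.39, SE). In EpCAM- Rgs13, Gnat3 and Pou2f3 averaged log2 levels of only 2.32, 2.18 and 2.89. They passed the filter through their EpCAM+ levels, so as tested genes they could come out lower but not higher. The count of lower markers was thus set in part by the filter. The gene that was higher was Ptgs1, a prostaglandin synthase (3.19 ± 0.11, SE). The list's share of the back-transformed total was 0.0291% to 0.0376% in EpCAM+ and 0.0351% to 0.0363% in EpCAM-. Ptgs1 alone made up 9.16% to 10.1% of the list's summed level in EpCAM+ and 76.3% to 86.9% in EpCAM-. Chat, Gfi1b and Il25 stayed under the filter. Trpm5 was highest in replicate 1 and lowest in replicate 2 among the EpCAM+ libraries, an order found for 9 of the 11 tuft markers. The same order held for 12 of 12 leukocyte, 8 of 12 islet, 7 of 11 smooth muscle and pericyte and 7 of 14 fibroblast markers. It held for 4 of 14 acinar, 2 of 8 neuron, 1 of 4 skeletal muscle, 1 of 13 epithelial and 0 of 5 endothelial markers. Of all tested genes 20.6% had it.

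**Figure D2:**
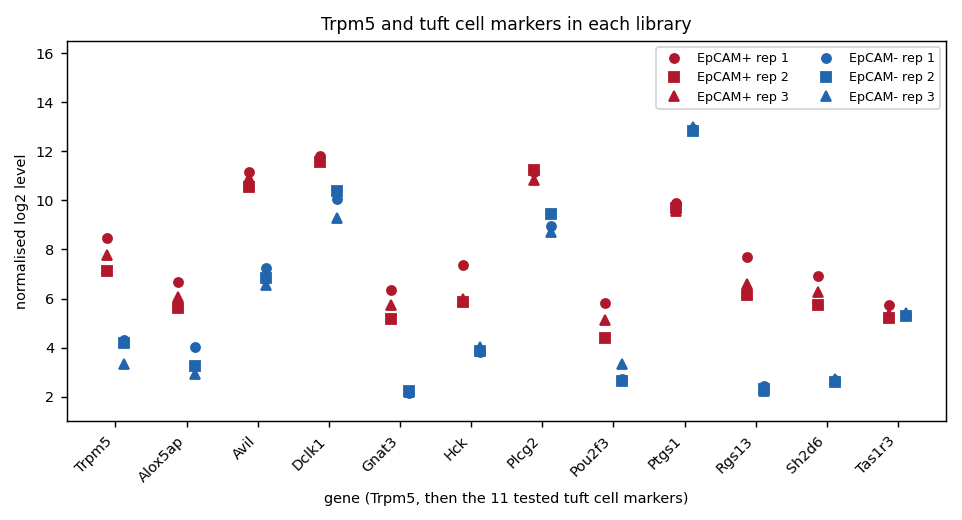
Normalised log2 level (y axis) of Trpm5 and the 11 tested tuft cell markers (x axis), with one symbol per replicate, EpCAM+ in red and EpCAM- in blue. Trpm5 lies between 7.13 and 8.46 in EpCAM+ and between 3.31 and 4.30 in EpCAM-, and Ptgs1 is the marker that is higher in EpCAM-.

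Promoter sequences are shown for the members with the largest changes in each direction among those with a single start in the RefSeq promoter table (build GRCm38.p6), which held 57 of the 76 members. Cacna1h, the tested member with the largest change, was not among the 57, nor were Trpm4, Cacna1a, Camk2n1 and Camk2g. Each runs 5′ to 3′ on the gene's strand, from 250 bases before to 50 bases after the start. Capitals mark the E-box CAGGTG or its reverse complement CACCTG, the hexamer that Snail and Zeb repressors are known to bind. Trpm5 lies at chr7:143094593-143094892 (minus strand), Trpv4 at chr5:114658372-114658671 (minus), Cacna1i at chr15:80286988-80287287 (plus) and Cacna2d3 at chr14:29721815-29722114 (minus).
Trpm5: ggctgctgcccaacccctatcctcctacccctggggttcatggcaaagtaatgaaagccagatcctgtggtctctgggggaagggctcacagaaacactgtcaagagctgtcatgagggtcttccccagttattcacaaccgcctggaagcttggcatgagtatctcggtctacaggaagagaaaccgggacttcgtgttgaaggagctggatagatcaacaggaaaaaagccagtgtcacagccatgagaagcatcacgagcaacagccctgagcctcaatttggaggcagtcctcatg
Trpv4: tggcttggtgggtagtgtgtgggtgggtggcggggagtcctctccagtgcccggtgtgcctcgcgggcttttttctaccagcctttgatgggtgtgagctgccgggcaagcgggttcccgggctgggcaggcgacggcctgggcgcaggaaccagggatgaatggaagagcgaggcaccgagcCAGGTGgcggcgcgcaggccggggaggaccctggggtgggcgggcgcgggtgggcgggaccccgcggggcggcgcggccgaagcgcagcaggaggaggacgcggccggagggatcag
Cacna1i: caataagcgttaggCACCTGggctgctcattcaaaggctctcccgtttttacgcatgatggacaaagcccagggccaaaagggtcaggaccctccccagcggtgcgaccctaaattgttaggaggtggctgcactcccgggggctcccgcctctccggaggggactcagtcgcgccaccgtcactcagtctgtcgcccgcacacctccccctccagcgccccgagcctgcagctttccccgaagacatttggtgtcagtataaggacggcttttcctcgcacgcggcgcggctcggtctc
Cacna2d3: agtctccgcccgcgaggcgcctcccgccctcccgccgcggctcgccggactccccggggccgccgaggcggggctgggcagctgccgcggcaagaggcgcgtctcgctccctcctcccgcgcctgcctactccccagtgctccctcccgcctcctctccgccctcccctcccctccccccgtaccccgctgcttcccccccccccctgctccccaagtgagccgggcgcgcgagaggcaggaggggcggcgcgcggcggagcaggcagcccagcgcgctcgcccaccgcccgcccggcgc
The hexamer occurs once in the Trpv4 and once in the Cacna1i window, a gene that fell and a gene that rose, and is not in the other two. These windows differ in base composition, with 53.0% G and C for Trpm5, 73.0% for Trpv4, 62.7% for Cacna1i and 81.3% for Cacna2d3. Over both strands, it was found in 1 of 12 windows of the lower members, 3 of 12 of the higher members and 9 of 24 of the members that did not pass, against 20.2% of all 32851 windows of the same length. Those windows belonged to 9 lower, 8 higher and 20 members that did not pass, some with more than 1 window. A match is a run of letters only and was not tied to binding.

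Of the 5 store-operated entry members, all tested, Stim1 was lower and the other 4 did not pass. Stim1, an ER calcium sensor (chromosome 7, 102267806 to 102437319), stood at 10.08, 9.88 and 9.85 in EpCAM+ and 9.54, 9.30 and 8.57 in EpCAM-. The fold change was -0.80 ± 0.24 (SE, adjusted p = 0.0340), and the call was lost without any 1 of the EpCAM+ libraries (adjusted p of 0.101, 0.0767 and 0.0810 without replicates 1, 2 and 3), without EpCAM- replicate 2 (0.0527) and without EpCAM+ replicate 1 and EpCAM- replicate 3 (0.1096), the highest of a range that began at 0.0145. Its fold change was -0.45 in that last case. Stim2, the sensor of small changes in store content, stood at 11.25, 11.06 and 10.77 in EpCAM+ and 11.32, 11.32 and 10.92 in EpCAM-, with overlapping groups (0.16, adjusted p = 0.485). Stim2 made up 81.1% ± 1.6 of the summed STIM level per kb in EpCAM+ and 89.2% ± 1.9 in EpCAM- (SD, n = 3 per group). The log2 ratio of Stim1 to Stim2 was -1.18, -1.18 and -0.91 in EpCAM+ and -1.78, -2.02 and -2.35 in EpCAM-, without overlap.

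The channel subunits themselves did not pass. Orai1, the main pore, stood at 9.11, 8.77 and 8.90 in EpCAM+ and 9.01, 8.44 and 8.56 in EpCAM- (-0.25, adjusted p = 0.307). Orai2 stood at 9.07, 8.49 and 8.88 against 9.80, 9.07 and 9.29 (0.58, adjusted p = 0.0843), and Orai3 at 7.91, 7.98 and 8.08 against 7.98, 7.42 and 7.26 (-0.44, adjusted p = 0.138). The groups overlapped for all 3. Orai2 passed after quantile normalisation (adjusted p = 0.0336) and with the replicate number as a block (0.0172), with alternatives spanning 0.0172 to 0.231. Orai3 passed without EpCAM- replicate 1 (adjusted p = 0.0158, with alternatives spanning 0.0158 to 0.415).

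Among the release channels of the ER, Itpr3 dominated in both groups. Per kb of merged exons it made up 93.2% ± 0.69 of the summed IP3 receptor level in EpCAM+ and 91.4% ± 3.2 in EpCAM- (SD, n = 3 per group). Itpr3 (chromosome 17, 27057304 to 27122223) stood at 14.08, 14.59 and 14.28 in EpCAM+ and 13.86, 13.59 and 13.91 in EpCAM-. The groups were adjacent, with a fold change of -0.53 ± 0.17 (SE, adjusted p = 0.0451), and this call was lost when any single library other than EpCAM+ replicate 1 was left out, with adjusted p between 0.0574 and 0.129. It was also lost after upper-quartile scaling (0.0504), without a variance trend (0.0508) and with the replicate number as a block (0.0707). Leaving out EpCAM+ replicate 1 and EpCAM- replicate 3 together ended it too (0.0824), and alternatives spanned 0.0148 to 0.129. Itpr1 stood at 9.55, 10.20 and 9.97 in EpCAM+ and 9.87, 10.46 and 10.30 in EpCAM- (0.30, adjusted p = 0.289). Itpr2, the main partner of Itpr3 in acinar cells, stood at 10.35, 10.89 and 10.86 against 9.67, 10.73 and 10.01 (-0.56, adjusted p = 0.151), with overlapping groups in both genes. Itpr2 passed without EpCAM- replicate 2 (adjusted p = 0.0220) and with the replicate number as a block (0.0351), with alternatives spanning 0.0220 to 0.345. The 3 ryanodine receptor genes, the release channels of muscle and neurons, stayed under the filter in all libraries, at log2 levels of at most 3.01.

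The 2 tested plasma membrane pump genes moved in opposite directions. Atp2b4, which encodes PMCA4 (ENSMUSG00000026463, chromosome 1, 133699457 to 133801041), stood at 10.79, 10.91 and 10.37 in EpCAM+ and 11.76, 12.84 and 13.02 in EpCAM-. Each EpCAM- library was above each EpCAM+ library, with a fold change of 1.85 ± 0.33 (SE, adjusted p = 0.00417). Atp2b1, the widely expressed PMCA1, stood at 13.05, 13.20 and 13.03 in EpCAM+ and 12.23, 12.84 and 12.53 in EpCAM- (-0.56 ± 0.17, SE, adjusted p = 0.0308). The Atp2b1 call was lost without any 1 of the EpCAM+ libraries (adjusted p between 0.0726 and 0.0948), without EpCAM- replicate 3 (0.0755) or without EpCAM+ replicate 1 and EpCAM- replicate 3 (0.148), and alternatives spanned 0.0102 to 0.148. Per kb, Atp2b4 made up 19.1% ± 2.3 of the PMCA level in EpCAM+ and 55.4% ± 8.2 in EpCAM- (SD, n = 3 per group). The log2 ratio of Atp2b1 to Atp2b4 was 2.26, 2.28 and 2.66 in EpCAM+ and 0.47, -0.0036 and -0.49 in EpCAM-. Atp2b2 and Atp2b3, the pumps of neurons and sensory cells, were under the filter.

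The main ER and Golgi pump genes did not pass. Atp2a2, the common SERCA2, stood at 13.69, 13.88 and 13.76 in EpCAM+ and 13.71, 13.60 and 13.77 in EpCAM- (-0.082, adjusted p = 0.609), and made up 82.8% ± 3.6 and 77.4% ± 10.1 of the SERCA level per kb (SD, n = 3 per group). Atp2a3 stood at 11.39, 10.93 and 11.50 against 12.16, 10.36 and 12.24, so that EpCAM- held both the highest libraries and the lowest. Its fold change of 0.31 did not pass (adjusted p = 0.644), and it passed at 0.92 without EpCAM- replicate 2 (adjusted p = 0.0115, with alternatives spanning 0.0115 to 0.986). Of the secretory pathway pumps, which load calcium and manganese into the Golgi, Atp2c1 stood at 11.57, 11.76 and 11.49 in EpCAM+ and 11.54, 11.65 and 11.59 in EpCAM- (-0.014, adjusted p = 0.926).

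**Figure D3:**
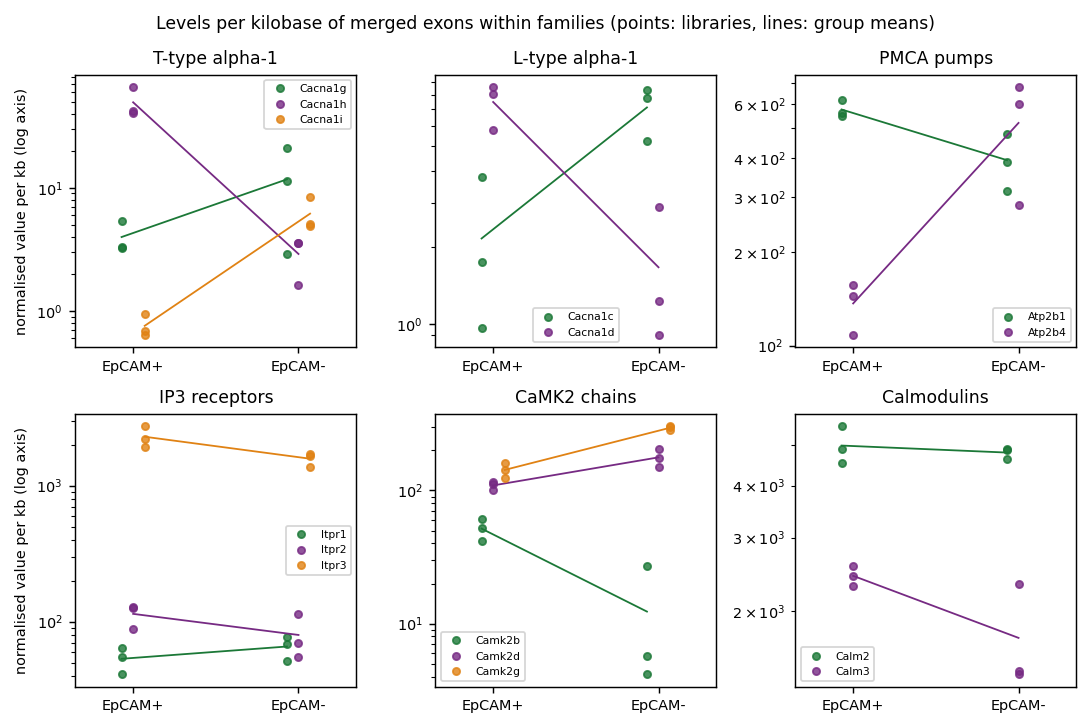
Normalised value per kilobase of merged exons (y axis, log scale, each panel on its own range) in EpCAM+ and EpCAM- libraries for 6 families. Points are libraries and lines join the group means. Atp2b4 lies between 108 and 157 in EpCAM+ and between 283 and 680 in EpCAM-, and Itpr3 lies above Itpr1 and Itpr2 in every library.

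Calmodulin, the calcium sensor protein, is encoded by several genes that are known to give the same product. Calm2 stood at 12.99, 12.81 and 12.70 in EpCAM+ and 12.81, 12.80 and 12.73 in EpCAM- (-0.051), and Calm3 at 12.60, 12.52 and 12.44 against 12.46, 11.74 and 11.77 (-0.53, adjusted p = 0.0686). Neither passed, and both overlapped between groups. Calm3 passed without EpCAM- replicate 1 at -0.77 (adjusted p = 0.00149, with alternatives spanning 0.00149 to 0.339) and after quantile normalisation at -0.58 (adjusted p = 0.0427). It also passed with the replicate number as a block (adjusted p = 0.0384).

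Of 8 calmodulin kinase genes 7 were tested, of which 3 were higher, 1 lower and 3 did not pass. Camk2b, the chain best known from neurons and islet cells, stood at 8.91, 9.12 and 8.57 in EpCAM+ and 7.95, 5.24 and 5.70 in EpCAM-. The groups did not overlap, but EpCAM- replicate 1 stood near the EpCAM+ range, and the fold change was -2.57 ± 0.66 (SE, adjusted p = 0.0181). The call was lost without EpCAM+ replicate 1 (0.0514) or 2 (0.0585), EpCAM- replicate 3 (0.0557) or EpCAM+ replicate 1 and EpCAM- replicate 3 (0.111), while without EpCAM- replicate 1 the fold change was -3.39 (adjusted p = 0.000238, the lowest of a range up to 0.111). The broadly expressed chains were higher in EpCAM-. Camk2d stood at 11.30, 11.34 and 11.14 against 11.95, 11.73 and 12.17 (0.69 ± 0.14, SE, adjusted p = 0.00602), and Camk2g at 10.01, 9.84 and 9.64 against 10.92, 10.82 and 10.93 (1.06 ± 0.12, SE, adjusted p = 0.000489). The Camk2d call was lost when both EpCAM+ replicate 1 and EpCAM- replicate 3 were dropped (adjusted p = 0.0512, with alternatives spanning 0.00424 to 0.0512). In shares of the CaMK2 level per kb, Camk2b made up 16.9% ± 1.8 in EpCAM+ and 2.47% ± 2.5 in EpCAM-, and Camk2g 46.8% ± 2.3 and 61.0% ± 3.0 (SD, n = 3 per group). The EpCAM- shares of Camk2b were 5.36%, 0.950% and 1.10%, with a mean of 1.03% without replicate 1.

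Camk1d, a CaMK1 isoform, stood at 9.47, 9.70 and 8.85 in EpCAM+ and 10.42, 10.86 and 10.70 in EpCAM- (1.32 ± 0.23, SE, adjusted p = 0.00374). Camk1 (0.029), Camk1g (-0.031) and Camk4 (-0.55, adjusted p = 0.165) did not pass, and the span of Camk1 overlaps Ogg1 on the opposite strand. Camk4 passed without EpCAM- replicate 2 (adjusted p = 0.0470, with alternatives spanning 0.0470 to 0.602). Camk2n1, which encodes a peptide inhibitor of CaMK2 (chromosome 4, 138454314 to 138460123), was lower in EpCAM-. It stood at 12.09, 12.16 and 11.91 in EpCAM+ and 10.07, 11.04 and 11.20 in EpCAM-, a fold change of -1.28 ± 0.29 (SE, adjusted p = 0.0102). Its relative Camk2n2 had 0.42 and did not pass (adjusted p = 0.145), although its groups did not overlap, and it passed after quantile normalisation at 0.79 (adjusted p = 0.0129, with alternatives spanning 0.0129 to 0.362).

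**Figure D4:**
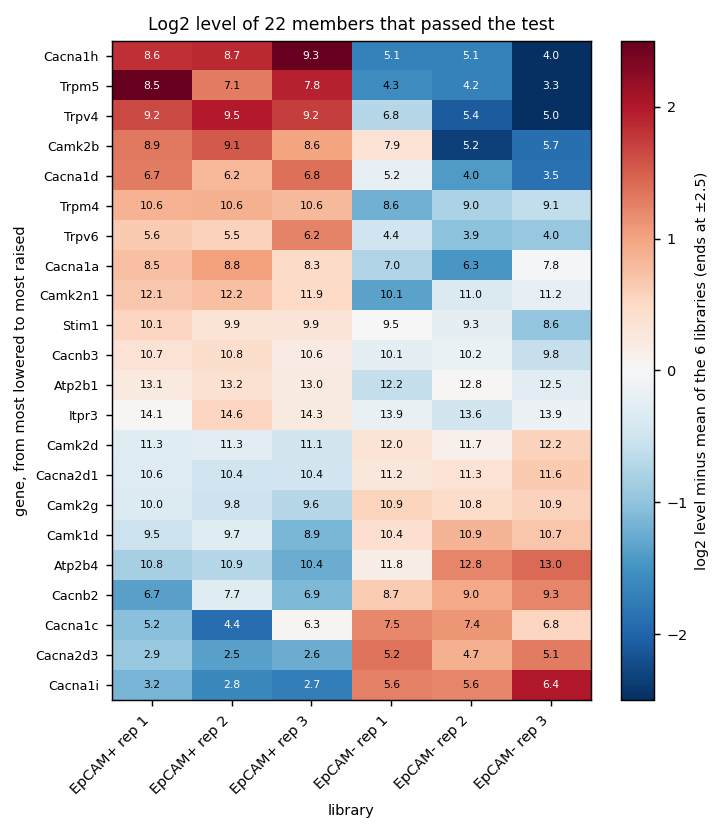
Log2 level of 22 of the 24 members past the test (rows, from the most lowered to the most raised) in each library (columns), with the level printed in the cell and coloured by its distance from the mean of the 6 libraries. Cacna1h, Trpm5 and Trpv4 head the lowered genes, and Cacna1i, Cacna2d3 and Cacna1c end the raised genes.

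For pairs of paralogues, the log2 ratio in each library was compared between groups with the exact two-sided permutation test, whose smallest possible p with 3 libraries against 3 is 0.1. Of 10 pairs, 7 reached that p, which is 0.143 after Benjamini-Hochberg adjustment over the 10, and none can pass a threshold of 0.05 in this design. They included Stim1/Stim2, Itpr1/Itpr3, Atp2b1/Atp2b4, Camk2d/Camk2g and Trpm4/Trpm7. Reaching that p means only that the ratio did not overlap between groups, and 56.3% of all tested single genes did not overlap either. The share over all gene pairs was not computed, so the count is not a result about these families. Large differences in the ratio were those of Atp2b1/Atp2b4 (-2.41) and Trpm4/Trpm7 (-1.999). It differed least for Itpr2/Itpr3 (-0.035, exact p = 1), Orai1/Orai3 (0.19, exact p = 0.3) and Camk2d/Camk2g (-0.37).

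The 27 members under the filter had log2 levels of at most 3.92 in any library. They included Cacna1e, Cacna1f, Cacna2d2, Cacna2d4, Cacnb4, Cacng1, Cacng4, Cacng8, Trpc4, Trpc5, Trpc6, Trpc7, Trpc5os, Trpm1, Trpm2, Trpm3, Trpm8, Trpv3, Trpv5, Ryr1, Ryr2, Ryr3, Atp2a1, Atp2b2, Atp2b3 and Camk2a. Of these, 7 shared all 6 of their values with some other gene. Trpm3, with a mean back-transformed value of 9.69, lay just outside the filter, and Trpc2 (12.3) and Cacng7 (12.8) just inside it. When no filter was set, 3 of the 27 passed, namely Trpm3 (0.80, adjusted p = 0.0229) and Trpm8 (0.31, adjusted p = 0.0433), both higher, and Trpv3, a channel of keratinocytes (-1.23, adjusted p = 0.00747).

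Genes around the members were counted in 11 lists of the calcium pathway. Of 122 tested genes 30 were higher (24.6%, beside 20.3% of all tested genes), 36 were lower (29.5%, beside 23.1%) and 56 did not pass, with a median fold change of 0.020. Without EpCAM+ replicate 1 and EpCAM- replicate 3 the lower genes numbered 22. Some genes named below averaged under 10 after back-transformation in the group where they were lower. They were tested only through the other group, which fixed their direction, and the size of their folds is uncertain. Among them Plch2, Itprid1, P2rx1 and Dapk2 averaged log2 levels of 2.86, 2.44, 2.45 and 2.47 in EpCAM-. Dclk3, Tmem178, S100g and P2rx2 averaged 2.69, 3.05, 3.16 and 3.20 there, and Jph2 averaged 2.87 in EpCAM+. The list counts were thus set in part by the filter. Each list count below is to be set beside the 20.3% higher and 23.1% lower of all tested genes. Upstream of the release channels, phospholipase C genes split, 4 higher and 6 lower of 13, with Plch2 at -3.98 ± 0.21 (SE), Plcg2 at -2.05 ± 0.21 (SE), Plce1 at -1.79 ± 0.31 (SE) and Plcl1, a relative without catalytic activity, at 1.98 ± 0.20 (SE). Genes that metabolise IP3 or bind its receptors gave 5 lower and 0 higher of 9, beside 23.1% and 20.3% of all tested genes. The lower genes included the IP3 kinases Itpkc (-3.06 ± 0.26, SE) and Itpkb (-1.11 ± 0.13, SE), the receptor-binding protein Ahcyl2 (-2.74 ± 0.14, SE) and Itprid1 (-2.29 ± 0.27, SE). Itpkc stood at 12.38, 12.93 and 12.99 in EpCAM+ and 9.28, 10.16 and 9.69 in EpCAM-, without overlap.

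In other channels outside the members, 5 were higher and 6 lower of 20, beside 20.3% and 23.1% of all tested genes. Trpa1, a TRP channel for irritants that the naming pattern does not take, stood at 3.81, 5.43 and 4.09 in EpCAM+ and 8.79, 8.99 and 8.83 in EpCAM-. Its fold change of 4.43 ± 0.41 (SE, adjusted p = 0.000193) went against the direction of the TRPM and TRPV members that passed. Pkd1, the large polycystin, had 1.99 ± 0.21 (SE), and the ATP-gated channels P2rx2 and P2rx1 had -2.49 ± 0.37 (SE) and -1.88 ± 0.33 (SE). Among mitochondrial genes 3 were higher and 2 lower of 14. Mcub, a subunit known to dampen the mitochondrial uniporter, stood at 6.78, 6.02 and 6.16 in EpCAM+ and 9.69, 9.09 and 9.17 in EpCAM- (3.00 ± 0.26, SE), and the exchanger Slc8b1 had 1.09 ± 0.12 (SE). Letm1 (-0.64 ± 0.16, SE) and Mcur1 (-0.47 ± 0.11, SE) were lower, and both lost the call without EpCAM+ replicate 3 (adjusted p = 0.0627 and 0.0503). The pore gene Mcu, outside the rule for named genes and chosen after its values were seen, had -0.59 and did not pass (adjusted p = 0.0537).

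Store-operated entry regulators and junction genes gave 6 higher and 3 lower of 13, with Cracr2b (-2.20 ± 0.16, SE), Tmem178 (-1.67 ± 0.27, SE) and the tether Esyt3 (-1.29 ± 0.22, SE) lower and the junction protein Jph2 (1.33 ± 0.45, SE, adjusted p = 0.0477) higher. Jph2 lost its call under 7 alternatives, among them leaving out EpCAM+ replicate 2 or 3 or EpCAM- replicate 1 or 2, with adjusted p up to 0.136. ER luminal calcium-binding proteins gave 4 higher and 2 lower of 15, with the reticulocalbins Rcn3 (4.27 ± 0.59, SE) and Rcn1 (3.46 ± 0.39, SE) and calumenin, Calu (0.94 ± 0.16, SE), higher and Nucb2 (-1.46 ± 0.15, SE) lower. Rcn3 was at 6.59, 4.32 and 4.88 in the EpCAM+ libraries, where the mean log2 level of the fibroblast markers was 8.50, 6.55 and 6.74. The means of the islet, leukocyte, smooth muscle and pericyte, neuron and tuft cell markers had the same order. Those of the acinar, endothelial, epithelial and skeletal muscle markers did not, and a link was not tested. Calcineurin and its partners gave 5 higher and 1 lower of 14, beside 20.3% and 23.1% of all tested genes. The catalytic chains Ppp3ca (0.89 ± 0.15, SE) and Ppp3cc (1.11 ± 0.19, SE) and the regulators Rcan2 (1.58 ± 0.27, SE) and Rcan1 (0.83 ± 0.23, SE) were higher. Rcan1 lost its call without EpCAM+ replicate 2 or 3 or EpCAM- replicate 2 or 3, with adjusted p up to 0.0793. Other calmodulin-dependent and related kinases gave 2 higher and 7 lower of 14, beside the same shares of all tested genes. Dclk3 (-2.43 ± 0.28, SE), Dapk2 (-2.36 ± 0.21, SE) and Dapk1 (-1.95 ± 0.24, SE) were lower and Dclk2 (2.01 ± 0.40, SE) was higher. The 4 tested cytosolic buffers were all lower, beside 23.1% of all tested genes, S100g by most (-1.32 ± 0.29, SE). S100g was tested only through its EpCAM+ levels, so it could come out lower but not higher. S100g, Capns1 and Sri each lost the call under some alternatives, with adjusted p up to 0.0830, 0.120 and 0.194. None of 3 sodium-calcium exchangers passed, and of 3 genes listed as SERCA regulators only Thbs4, a matrix protein, was higher (2.25 ± 0.68, SE, adjusted p = 0.0334, up to 0.1097 over the alternatives).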

How the data were processed

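RNA of 6 libraries, 3 EpCAM+ and 3 EpCAM-, was analysed from 1 table of normalised log2 values that the authors deposited for 25978 genes. The submitters' processing notes name STAR 2.5.2, RSEM, DESeq2 1.24.0 and GRCm38, with no role or order, so the transform behind the log2 values is not known and differences of low genes may be shrunken. Symbols came from GENCODE M21, which matched 25846 genes. Genes averaging at least 10 after back-transformation (15783) entered 1 limma fit (version 3.58.1, R 4.3.3) that used a variance trend and no covariate, and p-values were adjusted by Benjamini-Hochberg over all of them, with a threshold of 0.05. The procedure was tested on simulated data. Alternatives were another pseudocount, filter, scaling or variance model, a replicate block, and libraries left out. All tested members were described by role, and up to 4 genes past the threshold with the largest changes were named per pathway list. Members and lists were chosen with earlier results of these data known. Covered by the naming rule, 6 further genes were not analysed here, and 1 further allele of the KPCY genotype and the values of some members are not reported here, although counts include those members.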

Additional observations from a re-analysis of the deposited data

How the results depend on the processing

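Leaving out 1 library at a time gave between 9 and 15 lower and between 8 and 11 higher members, the 9 without EpCAM+ replicate 2. Without EpCAM+ replicate 1 and EpCAM- replicate 3 together, 9 members and 22 other pathway genes were lower, and the latter count ran from 27 to 40 with 1 library left out. Of the 24 members past the threshold, 15 stayed past it under every alternative that could test them, and the other 9 included Itpr3, Atp2b1, Camk2b, Camk2d, Stim1, Cacna1a, Cacna1c and Cacnb3.

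Quantile normalisation took the median fold change of all tested genes from 0.0043 to 0.13 and reversed the small differences of Trpc2 (0.087), Camk1g (0.24) and the Itpr2/Itpr3 ratio (0.091). Upper-quartile scaling reversed Atp2c1 (0.022) and Camk1g (0.0056). With 1 library left out, values spanned -0.43 to 0.23 for the Itpr2/Itpr3 ratio, -0.015 to 0.92 for Atp2a3, -0.072 to 0.064 for Atp2c1, -0.16 to 0.17 for Trpm6, -0.033 to 0.11 for Camk1, -0.32 to 0.27 for Camk1g and -0.12 to 0.028 for Calm2. Without EpCAM+ replicate 1 and EpCAM- replicate 3 together, the Itpr2/Itpr3 ratio was 0.028, Trpm6 -0.25, Camk1 -0.0405 and Calm2 0.055. The cause was not tested.

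With the replicate number as a block, 13 members were higher and 15 lower. Cacna1b (adjusted p = 0.0198), Cacng7 (0.0129), Orai2 (0.0172), Itpr2 (0.0351) and Calm3 (0.0384) passed with the block and not without it, and Itpr3 lost its call (0.0707). Deviations of equally numbered libraries correlated at 0.41, 0.044 and 0.16, and not every library correlated best with its own number, so the numbers were not taken to pair libraries. Depth is unknown, which limits what can be said of the 27 members under the filter.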
